A study of Mus musculus with 158 samples.

Results

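Bnip3l, Als2cr12, Gm10184 and Etf1 are 4 of the 53715 genes in the RNA-seq tables of F1 hybrid mice, and they were chosen by their expected counts in the hybrid comparisons, which followed the hybrid rather than the tissue. All 4 passed the filter on low counts, as did 4303 genes in all. Bnip3l had no reads in any B6xSPRET library and reads in every B6xC3H and B6xPWK library. Als2cr12 had at most 1 count in the B6xC3H libraries and 19.3 to 75.2 counts in each B6xPWK and B6xSPRET library. Gm10184 and Etf1 ran the other way from Bnip3l, with counts almost only in B6xSPRET. These values chose the genes, so they are given below as a description, with no test. Neighbouring genes, related genes and DNase I hotspots were not used in the choice and were tested. Tissue differences were tested too, although a choice of genes that follow the hybrid rather than the tissue bears on them.

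The mice were F1 offspring of C57BL/6J (B6) females crossed with males of another strain and were 8 weeks old. B6xC3H has a C3H/HeJ parent, B6xPWK a PWK/PhJ parent and B6xSPRET a SPRET/EiJ parent, while the DNase-seq also covers the hybrids B6x129 and B6xCAST (CAST/EiJ). Per the methods, B6x129 and B6xC3H females were bought from the Jackson Laboratory, and the other hybrids were bred at the authors' centre. Differences between these hybrids and the others cannot be told apart from origin. RNA was sequenced in more than 1 read length, without a statement of which library had which. The labels name no edited allele and no agent. Every RNA and DNA sample therefore carries 1 B6 genome copy beside that of the other strain, and the tables do not separate the parental copies. Liver, kidney and lung were typically pooled from several animals, and B cells came from femoral marrow after depletion of cells carrying CD43 or CD11b. RNA was measured in 17 libraries. B6xC3H gave 4 of them (1 per tissue), B6xPWK gave 5 (2 from B cells) and B6xSPRET gave 7 (1 from B cells and 2 from each solid tissue). Nothing states that libraries of the same hybrid and tissue came from separate animals, so p-values measure only the spread between these libraries, which may be technical. The remaining B cell library is labelled B6xCAST, whereas the study's sample table gives it as B6xC3H, as that table also does for published libraries that the methods call B6xCAST. It therefore entered no hybrid comparison and its values are given apart.

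The RNA tables hold RSEM expected counts, an estimate of the reads that belong to each gene, and they sum to between 283725 and 809337 per library. At this depth 1 count equals 1.24 to 3.52 CPM (counts per 1000000 counts of the library), so values near 1 count cannot be told from 0. Markers followed the tissue labels. The summed level of 6 liver genes was 518 to 3240 CPM in liver and at most 11.6 CPM elsewhere, that of 6 kidney genes 112 to 184 CPM in kidney against at most 39.1 CPM, that of 6 lung genes 213 to 485 CPM in lung against at most 18.4 CPM, and that of 6 B cell genes 98.2 to 136 CPM in B cells against at most 13.2 CPM. Granulocyte and monocyte genes summed to 77.5 to 393 CPM in every tissue, with 2 to 4 of the 6 at 0 in all libraries of a tissue. The strand setting of the counting is not given in the sources used here. Of the genes that passed the filter 79.7% (3424 of 4298 with a position) overlap a gene on the other strand, against 30.9% (16573 of 53620) of all genes with a position, and a table counted on the strand opposite to the transcripts would hold reads of such partners. Each of the 4 genes is therefore described with the genes on its opposite strand. Counts given to any gene named below need not come from its own transcripts.

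The 4 genes have unrelated roles. Bnip3l (also called Nix) encodes a receptor in the outer mitochondrial membrane that marks mitochondria for autophagy and clears them from maturing red cells. Etf1 encodes eRF1, the release factor that recognises stop codons and ends translation on the ribosome. Als2cr12, named Flacc1 by RefSeq, encodes a coiled-coil protein of the sperm flagellum. Gm10184 is a predicted single-exon gene whose sequence is nearly the same as the transcript of Kpna2, an importin alpha that carries proteins with a nuclear localisation signal into the nucleus.

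All 4 lie on the minus strand of mm10 (GRCm38). Bnip3l (ENSMUSG00000022051) spans chr14:66985239-67008877 with up to 7 exons per transcript, and Als2cr12 (ENSMUSG00000047528) spans chr1:58646903-58695989 with up to 15. Etf1 (ENSMUSG00000024360) spans chr18:34902785-34932007 with 11 exons. Gm10184 (ENSMUSG00000066878) is the single exon chr17:89908462-89910449. They are on 4 different chromosomes.

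Bnip3l was counted in both other hybrids and not in B6xSPRET. In B cells it had 22.8 expected counts in B6xC3H, 41.9 and 23.3 in the B6xPWK libraries and 0 in B6xSPRET. In lung it had 7.0 counts in B6xC3H, 41.8 in B6xPWK and 0 in both B6xSPRET libraries, and in kidney 7.4, 11.3, 0 and 0 in the same order. In liver B6xC3H and B6xPWK each had 2 counts and both B6xSPRET libraries 0. The B6xSPRET libraries thus lay below every other library in each tissue, and RSEM's own posterior SD of these counts reached at most 3.0 counts. As CPM, B6xC3H ranged from 6.21 to 28.2 (median 15.7, n = 4) and B6xPWK from 6.33 to 110 (median 52.1, n = 5), and these ranges overlapped. Against a floor of 3 counts over the B6xSPRET group, the summed counts were at least 49.7-fold higher in B6xPWK and at least 15.9-fold higher in B6xC3H. By tissue the bounds for B6xPWK were at least 28.3-fold in lung, 7.45-fold in B cells and 6.42-fold in kidney. For B6xC3H they were at least 4.62-fold in lung, 3.82-fold in kidney and 2.7-fold in B cells. Summed ratios mix tissues in different shares, and floors and intervals of these ratios cover counting error only. No difference was detectable in liver at these counted totals, since 3 counts in the 2 B6xSPRET liver libraries equal 5.14 CPM and the other hybrids stood at 6.21 and 6.33 CPM. In the fit over all genes Bnip3l was lower in B6xSPRET by a log2 fold change of -7.17 ± 0.82 (SE) against B6xPWK and -5.95 ± 0.96 against B6xC3H, fitted values that are no bound where a group is at 0. In bulk samples fewer cells of a type and less RNA per cell cannot be told apart. Genes of red cells, in which Bnip3l is known to act, summed to 18.6 to 41.3 CPM in B6xC3H, 12.7 to 139 CPM in B6xPWK and 10.5 to 88.7 CPM in B6xSPRET, and these ranges overlapped, with 1 or 2 of the 7 genes at 0 in all libraries of a tissue. Their part in the Bnip3l result was not tested.

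**Figure D1:**
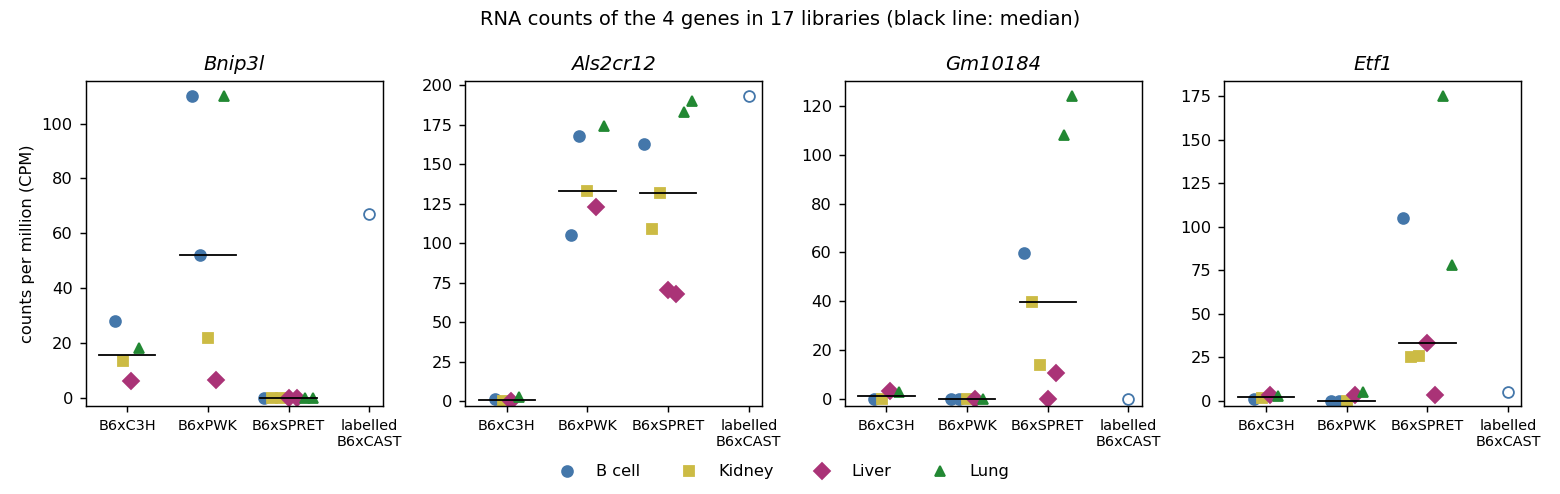
CPM (linear axis) of the 4 genes in the 17 libraries, by hybrid on the horizontal axis, with tissue as colour and shape, a black line at the median and an open circle for the B cell library labelled B6xCAST. Bnip3l is at 0 in all 7 B6xSPRET libraries, Als2cr12 is at or below 2.58 CPM in all 4 B6xC3H libraries, and Gm10184 and Etf1 exceed 5.31 CPM only in B6xSPRET libraries.

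Als2cr12 was close to absent from B6xC3H and similar in the other hybrids. In B cells it had 1.0 count in B6xC3H, 40.2 and 75.2 in B6xPWK and 46.6 in B6xSPRET. In kidney it had 0 counts in B6xC3H, 68.4 in B6xPWK and 47.7 and 61.5 in B6xSPRET, and in lung 1.0, 66.2, 70.2 and 73.0 in the same order. In liver it had 0 counts in B6xC3H, 38.8 in B6xPWK and 21.0 and 19.3 in B6xSPRET. All 4 B6xC3H libraries (0 to 2.58 CPM) lay below all B6xPWK libraries (105 to 174 CPM, median 133) and all B6xSPRET libraries (68.2 to 190 CPM, median 132), whose ranges overlapped each other. Over 4 tissues the summed counts gave a ratio to B6xC3H of 147 for B6xPWK (95% counting interval 40.2 to 1220) and 138 for B6xSPRET (38.0 to 1150), each resting on 2 B6xC3H counts. In kidney and liver, with no B6xC3H counts, the bounds were at least 24.2-fold and 13.3-fold for B6xPWK and at least 22.2-fold and 7.36-fold for B6xSPRET. In B cells the ratios were 112 (19.7 to 4470) for B6xPWK and 133 (22.8 to 5380) for B6xSPRET, and in lung 67.3 (11.7 to 2700) and 72.2 (12.8 to 2870). The log2 fold change against B6xC3H was 6.59 ± 0.53 (SE) for B6xPWK and 6.68 ± 0.52 for B6xSPRET, and between the latter 2 hybrids it was 0.10 ± 0.26. Per length, Als2cr12 reached 92.8 to 154 TPM (transcripts per 1000000 transcripts, scaled by length) in B6xPWK and 49.8 to 174 TPM in B6xSPRET, above the 2.02 to 38.4 TPM of Bnip3l in B6xPWK.

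Gm10184 was counted almost only in B6xSPRET. It had 17.1 counts in the B6xSPRET B cell library, 17.4 and 6.4 in kidney and 41.2 and 47.7 in lung. In liver the B6xSPRET libraries had 0 and 3.0 counts. No B6xPWK library had a count, and B6xC3H had 1.0 in liver, 1.0 in lung and 0 in B cells and kidney. The groups overlapped in liver, and each tissue holds few libraries. B6xSPRET ranged from 0 to 124 CPM (median 39.7, n = 7). The summed count was at least 35.7-fold higher than in B6xPWK, with bounds of at least 16.5-fold in B cells, 14.7-fold in lung and 4.57-fold in kidney. Against B6xC3H the ratio was 54.2 (14.7 to 452) over all tissues and 45.0 (7.86 to 1800) in lung, with bounds of at least 16.1-fold in B cells and 4.88-fold in kidney. The log2 fold change was 7.40 ± 0.97 against B6xPWK and 5.21 ± 0.82 against B6xC3H. RSEM shared reads between Gm10184 and other genes, and its posterior SD in the B6xSPRET libraries was 0.76 to 11.4 counts.

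Etf1 also had nearly all of its counts in B6xSPRET. The B6xSPRET libraries had 30 counts in B cells, 11 and 12 in kidney, 10 and 1 in liver and 67 and 30 in lung. Each B6xC3H library had 1 count, and the B6xPWK libraries had 0 and 0 in B cells, 0 in kidney, 1 in liver and 2 in lung. In liver the second B6xSPRET library equalled the other hybrids at 1 count. As CPM, B6xSPRET ranged from 3.52 to 175 (median 33.4), B6xC3H from 1.24 to 3.1 and B6xPWK from 0 to 5.26. The ratio of summed counts was 43.2 (14.5 to 211) against B6xPWK and 32.8 (12.6 to 122) against B6xC3H. In lung the ratios were 24.0 (6.47 to 201) and 49.0 (8.59 to 1950), while in liver they were 5.96 (0.866 to 257) and 6.08 (0.883 to 262), intervals that include equal levels. In B cells B6xSPRET was at least 29.1-fold above B6xPWK and 85.1-fold (14.2 to 3470) above B6xC3H, and in kidney at least 4.38-fold and 14-fold (2.28 to 578). The log2 fold change was 5.42 ± 0.64 against B6xPWK and 4.75 ± 0.66 against B6xC3H. TPM cannot be compared for this gene in 1 library. The single B6xC3H B cell count was given 154 TPM where RSEM gave the gene a length of 108 bases. In the B6xSPRET libraries the length was 3709 bases, and 67 counts gave 50.9 TPM.

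The library labelled B6xCAST had 38.0 counts of Bnip3l (67.2 CPM), 108.9 of Als2cr12 (193 CPM), 0 of Gm10184 and 3 of Etf1 (5.31 CPM). Its Als2cr12 value lay above all 16 other libraries, while the 4 libraries labelled B6xC3H had at most 1 count. Its Bnip3l, Gm10184 and Etf1 values lay on the side of B6xC3H and B6xPWK.

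These differences stand at the head of the hybrid comparisons, as their choice implies. Across 4303 genes edgeR's quasi-likelihood test with Benjamini-Hochberg adjustment called 86 genes (2.0%) between B6xSPRET and B6xPWK, 46 higher in B6xSPRET, and by absolute log2 fold change Gm10184, Bnip3l and Etf1 held places 1, 2 and 3, with Fstl1 next at -5.41. Between B6xSPRET and B6xC3H 95 genes (2.21%) were called, 62 of them higher in B6xSPRET, and Als2cr12, Bnip3l, Gm10184 and Etf1 held places 4, 5, 7 and 8, between Obox8 at 6.81 and Gm45703 at 4.62. Between B6xPWK and B6xC3H 47 genes (1.09%) were called, 30 higher in B6xPWK, with Als2cr12 at place 1 and Fstl1 next at 6.08. Scaling by library totals alone, in place of TMM, gave 35.2%, 75.7% and 83.3% of calls as higher, against 53.5%, 65.3% and 63.8%. Bnip3l was the only gene of 4303 (0.0232%) with every B6xSPRET library below every other library in CPM, and Als2cr12 was 1 of 5 genes (0.116%) with every B6xC3H library below every other, beside 1110008L16Rik, Acat2, Fam208b and Gm10482. No member was among the 8 genes (0.186%) with every B6xSPRET library above all others, since the liver values of Gm10184 and Etf1 overlapped. The comparisons share libraries with each other.

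With tissue means removed, the log2(CPM + 1) levels of Bnip3l over the 16 libraries of known hybrid went against those of Gm10184 (Pearson r = -0.91) and Etf1 (r = -0.92), and Gm10184 and Etf1 rose together (r = 0.81). Als2cr12 followed none of them closely (r = -0.32 with Bnip3l, 0.30 with Gm10184 and 0.36 with Etf1). The genes most like each were Ccnyl1 (0.91), Gm49167 (0.90) and Tmem181a (0.90) for Bnip3l, Acat2 (0.95), Tagap1 (0.90) and Gm27194 (0.89) for Als2cr12, Gm45819 (0.87), Arhgef12 (0.86) and Xcr1 (0.84) for Gm10184, and Gm12100 (0.92), Gm48094 (0.86) and Olfr613 (0.86) for Etf1. The points share libraries, hybrids and depth, so these values describe the tables only.

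Between tissues the log2 fold changes of the 4 genes lay between -1.66 and 1.64. Each tissue was compared with the mean of the other 3 in the same fit, with hybrid as a covariate, and 1 of the 16 tests on the 4 genes passed. Gm10184 was higher in lung by a log2 fold change of 1.64 ± 0.55 (SE; adjusted p = 0.0171, edgeR's quasi-likelihood test with Benjamini-Hochberg adjustment), while 49.9% of all genes were called in lung. This rests on the B6xSPRET libraries, where lung had 108 and 124 CPM, B cells 59.9, kidney 39.7 and 13.7 and liver 0 and 10.6 CPM. Without the second B6xSPRET lung library the log2 fold change was 1.57 and the adjusted p 0.0803, and over all alternatives the adjusted p ran from 0.000578 to 0.115. Etf1 had a log2 fold change of 1.05 ± 0.45 in lung (adjusted p = 0.0523 by edgeR, 0.00218 to 0.489 over the alternatives). Gm10184 and Etf1 passed the filter only through B6xSPRET libraries, the lung ones among them. Their lung p-values therefore give no independent support for a tissue difference. Bnip3l had 0.93 ± 0.45 in B cells (adjusted p = 0.083 by edgeR, 0.0100 to 0.361 over the alternatives) and -1.36 ± 0.78 in liver (adjusted p = 0.162 by edgeR, 0.00829 to 0.812). For Als2cr12 the 4 tissue values lay between -0.41 ± 0.29 in B cells and 0.34 ± 0.30 in liver, none passed in the edgeR fit with TMM, and their direction turned with the scaling. With library totals alone the liver value was -0.83 (adjusted p = 0.0207, edgeR) and the lung value 0.76 (adjusted p = 0.0231, edgeR), and limma on log2(TPM + 1) gave -0.89 (adjusted p = 0.00489) and 0.87 (adjusted p = 0.00839), so both passed in the turned direction. The background shares of called genes were 60.8% in B cells, 35.2% in kidney and 45.4% in liver. Of those calls 50.6% in B cells, 70.7% in kidney, 51.3% in liver and 62.4% in lung were higher, and scaling by library totals alone gave 66.2%, 56.0%, 15.3% and 92.2%, moving the median log2 fold change of all genes from -0.33 to -1.47 in liver, from 0.14 to 1.0 in lung, from -0.06 to 0.52 in B cells and from 0.10 to -0.20 in kidney.

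**Figure D2:**
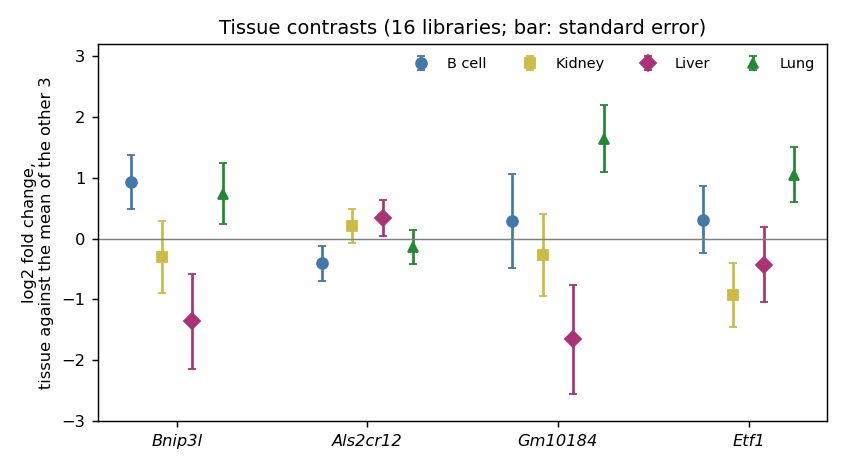
Log2 fold change (vertical axis, bars are standard errors) of each gene in each tissue against the mean of the other 3 tissues, over 16 libraries with hybrid as a covariate. The values run from -1.66 for Gm10184 in liver to 1.64 for Gm10184 in lung. Only the latter passed the test, and Gm10184 passed the filter only through B6xSPRET libraries.

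Genes on the opposite strand at or near the 4 loci were given few counts in any library. The strand of the counting is not given, so these counts need not come from those genes' own transcripts. They cannot show whether those genes are silent or alike between hybrids. Als2cr12 is overlapped by Cbx3-ps7, a processed pseudogene at chr1:58646688-58647239 that shares 337 bp with it, and by Gm20257, a transcribed pseudogene at chr1:58652641-58655831 that lies wholly inside it. Cbx3-ps7 had 0 to 1.8 counts per library and Gm20257 0 to 2. Nothing overlaps the other 3 genes on the opposite strand. The nearest opposite gene to Bnip3l is the small nucleolar RNA Gm24258, 14655 bp away, with 0 to 2 counts, and the nearest to Etf1 is Egr1, the immediate early transcription factor gene at chr18:34859823-34864984, 37801 bp away, with 0 to 8 counts. None lies within 50 kb of Gm10184. None of these 4 genes passed the filter. In a fit without the filter 0 of 4 were called in each hybrid comparison by edgeR, with 0 at an unadjusted p under 0.05. Of all genes 0.886% were called there between B6xSPRET and B6xPWK, 0.757% between B6xSPRET and B6xC3H and 0.682% between B6xPWK and B6xC3H, so 0 of 4 does not set these genes apart. Egr1 differed by 0.33 ± 0.73 (log2) between B6xSPRET and B6xPWK and by -0.19 ± 0.74 between B6xSPRET and B6xC3H.

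No neighbouring gene that could be tested was called between hybrids. Within 250 kb 14 genes are annotated around Bnip3l, 20 around Als2cr12, 3 around Gm10184 and 16 around Etf1, and 1, 2, 0 and 2 of them passed the filter. In each of the 3 hybrid comparisons 0 of these 5 were called by edgeR, DESeq2 or limma, with 0 at an unadjusted p under 0.05 in edgeR, and the background shares are 1.09% to 2.21%. Gm9570, a pseudogene 15372 bp from Bnip3l on the opposite strand, was higher in lung by 1.94 ± 0.39 on the log2 scale (adjusted p = 0.000168, edgeR). Between hybrids its log2 values were -0.29 ± 0.45, -0.30 ± 0.46 and -0.02 ± 0.58. Near Als2cr12, Fam126b was higher in B cells by 0.93 ± 0.37 (adjusted p = 0.0328, edgeR) and lower in liver, at -1.82 ± 0.55 (adjusted p = 0.00945, edgeR), the former lost without the first B6xPWK B cell library (0.239), the B6xPWK lung library (0.0695) or the B6xSPRET B cell library (0.104), whereas Nif3l1 passed in no comparison. Near Etf1, Reep2, which encodes a shaper of the endoplasmic reticulum, was higher in B cells by 5.18 ± 0.55 (adjusted p = 3.31e-08, edgeR) and lower in liver, at -4.60 ± 1.76 (adjusted p = 0.0374, edgeR). The noncoding Gm26538 was higher in B cells by 0.93 ± 0.31 (adjusted p = 0.0121, edgeR) and lower in liver, at -0.99 ± 0.39 (adjusted p = 0.0433, edgeR). These liver calls were each lost without 1 library, in 6 of 16 cases for Reep2 (adjusted p up to 0.0719) and 9 of 16 for Gm26538 (up to 0.101), and the B cell call of Gm26538 without the first B6xPWK (0.0512) or the B6xSPRET B cell library (0.0873).

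Near-identical copies elsewhere in the genome bear on 3 of the genes. A search of the longest transcript against GRCm38, done after the values were seen, kept matches of at least 90% identity over at least 20% of the transcript. It found 12 for Gm10184, 2 for Bnip3l, 1 for Als2cr12 and 0 for Etf1. The exons of Kpna2 (chr11:106988635-106999461) match 99.0% of Gm10184 at 99.8% identity in 11 pieces, and the single-exon Gm10259 (chr3:25210751-25212734) matches 99.8% of it at 99.8% identity, so reads of the 3 are hard to assign to a single locus. Kpna2 had 35.4 and 17.4 counts in B6xSPRET kidney and 34.4 and 39.0 in lung, 0 in B cells and 1 and 0 in liver, against at most 1 count in B6xC3H and 1.9 in B6xPWK. The log2 fold change of Kpna2 in B6xSPRET was 4.37 ± 0.72 against B6xPWK and 5.44 ± 0.83 against B6xC3H, and it was 1.07 ± 1.27 between B6xPWK and B6xC3H. Kpna2 passed the filter only through B6xSPRET kidney and lung, and reads can be split between it and Gm10184, so these values describe the same choice and were given no test. Gm10259 had at most 9 counts in a B6xSPRET library, all of them in 1 liver library, with 2 counts in the B cell library labelled B6xCAST and 0 elsewhere.

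**Figure D3:**
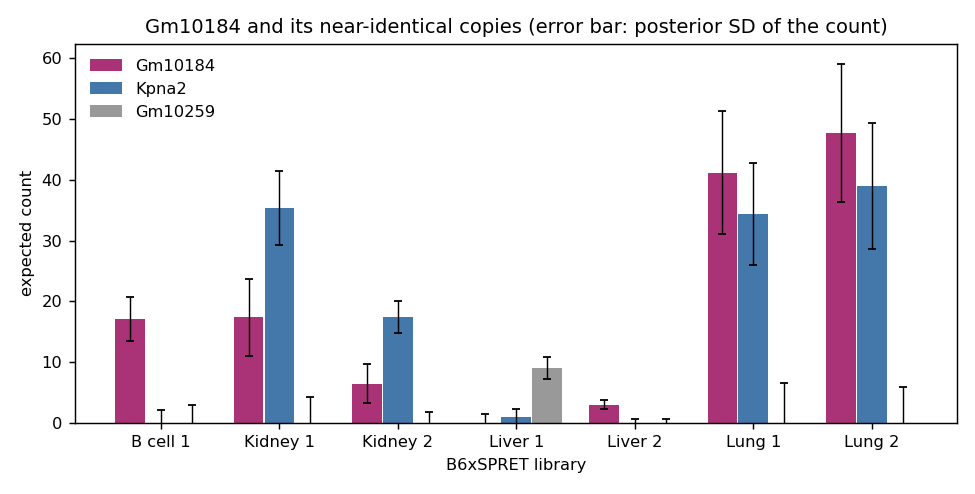
Expected counts (linear axis) of Gm10184, Kpna2 and Gm10259 in the 7 B6xSPRET libraries, with RSEM's posterior SD as error bars. Gm10184 alone has counts in B cells, Gm10184 and Kpna2 both have counts in kidney and lung, and Gm10259 has 9 counts in the first liver library.

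Gm10184, Gm10259 and Kpna2 were summed, which removes the split among them but not with the other copies. The summed count was 17.1 in B6xSPRET B cells, 52.8 and 23.8 in kidney, 10.0 and 3.0 in liver and 75.6 and 86.7 in lung. The sum was at most 1.0 in B6xC3H and 1.9 in B6xPWK. As CPM these were 10.6 to 226 in B6xSPRET, 0 to 3.17 in B6xC3H and 0 to 4.89 in B6xPWK. In liver the lower B6xSPRET sum was 3.0 counts, no more than the floor used above, against 1.0 in B6xC3H. In B cells B6xSPRET had 1 library. Copies of lower identity were left out. Among them Gm12919 (96.7% identity) had 0 counts in B6xC3H, 1 to 10.8 in B6xPWK and 0 to 6.1 in B6xSPRET. Gm5832 had 0, 0 to 3 and 0 to 5 in the same order, and Gm13310 0, 0 to 3 and 0 to 2.3. Kpna2-ps, a copy of 92.6% identity on the strand opposite Med20, had 49 to 416 counts in B6xC3H, 25 to 232 in B6xPWK and 11 to 138 in B6xSPRET, ranges that overlapped. Bnip3l-ps (chr12:18216543-18217828, 99.3% identity over 39.6% of the Bnip3l transcript) had 1 to 17.2 counts in B6xC3H, 0 to 17.7 in B6xPWK and 0 to 2 in B6xSPRET. Summed with Bnip3l it gave 9.31 to 49.4 CPM in B6xC3H, 6.33 to 134 CPM in B6xPWK and 0 to 7.01 CPM in B6xSPRET, where the 7.01 CPM of the B cell library exceeded the B6xPWK liver value. The other match of Bnip3l lies in Zranb3 (97.6% identity over 32.7% of the transcript) and was left out of this sum. Zranb3 had 0 to 6 counts in B6xC3H, 0 to 19 in B6xPWK and 0 to 2 in B6xSPRET. The match of Als2cr12 is Gm28802, with at most 1 count. Counts of Gm10184 and Bnip3l are uncertain to the extent that RSEM split reads between these copies.

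Among the other genes of mitophagy, the pathway of Bnip3l, 24 of 25 listed genes were in the tables and 4 passed the filter. Map1lc3b, the ubiquitin-like protein that autophagy receptors such as Bnip3l bind, was lower in B6xSPRET than in B6xPWK by -2.43 ± 0.50 on the log2 scale (adjusted p = 0.00599, edgeR) and higher in B6xPWK than in B6xC3H by 2.68 ± 0.57 (adjusted p = 0.0164, edgeR), with 0 to 22 counts per library. Without the B6xC3H B cell library the latter adjusted p was 0.161 and without the B6xC3H lung library 0.0631 (edgeR), within a range of 0.00184 to 0.347 over 23 alternatives. Over the list 1 gene fell and 0 rose between B6xSPRET and B6xPWK (median -0.06, all genes -0.04), 0 were called between B6xSPRET and B6xC3H by edgeR, DESeq2 or limma, with 0 at an unadjusted p under 0.05 (median 0.15, all genes -0.04) and 1 rose between B6xPWK and B6xC3H (median 0.08, all genes -0.01). Between tissues the receptor gene Bcl2l13 was higher in B cells (2.66 ± 0.25) and kidney (1.26 ± 0.26, a call lost with limma at adjusted p = 0.0708 and 0.0748) and lower in liver (-1.91 ± 0.37) and lung (-2.0 ± 0.33). Sqstm1, which links ubiquitinated cargo to autophagosomes, was higher in kidney (1.66 ± 0.26) and liver (2.22 ± 0.27) and lower in B cells (-1.51 ± 0.33) and lung (-2.37 ± 0.34). Usp30, which removes ubiquitin from mitochondria, was higher in B cells (0.98 ± 0.29), a call lost without the B6xC3H B cell library (adjusted p = 0.166, edgeR), and lower in lung (-1.38 ± 0.32), a call lost when scaled by library totals alone (adjusted p = 0.195, edgeR) and with limma (0.195 and 0.206). In lung 3 of the 4 genes tested were called lower, against 18.8% of all genes, and 0 higher, with a list median of -1.69 against 0.14 over all genes. Bnip3, the closest relative of Bnip3l, had at most 4 counts and did not pass the filter.

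Among 27 genes of translation termination and its surveillance, the pathway of Etf1, all were in the tables, 7 passed the filter and 0 were called in any of the 3 hybrid comparisons by edgeR, DESeq2 or limma. At an unadjusted p under 0.05 edgeR gave 1 between B6xSPRET and B6xPWK, 0 between B6xSPRET and B6xC3H and 1 between B6xPWK and B6xC3H. Their median log2 fold change was 0.08 between B6xSPRET and B6xPWK, -0.08 between B6xSPRET and B6xC3H and 0.01 between B6xPWK and B6xC3H. Gspt1, which encodes eRF3, the partner of eRF1, had 1 to 16 counts per library. Between tissues 5 of the 7 were called in at least 1 of the 4 comparisons, against 86.4% of all genes. Smg6, an endonuclease of nonsense-mediated decay, was lower in B cells (-2.93 ± 0.44) and higher in kidney (1.39 ± 0.32) and lung (1.09 ± 0.31). Ddx19a, an RNA helicase that also acts in termination, was higher in B cells (1.62 ± 0.48) and lower in liver (-2.99 ± 0.88). Trmt112, a partner of the methyltransferase that modifies eRF1, was called in liver (0.83 ± 0.28) and lung (-0.79 ± 0.29), and Eif3j1 in B cells (-0.57 ± 0.22). The direction of both genes depends on the scaling, since library totals alone gave -0.38, 0.10 and 0.03 in the same order.

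DNase I hotspots, regions where chromatin is open to the enzyme, were called by the authors in 20 sets, 1 for each of 5 hybrids and 4 tissues. A hotspot covered the annotated start of Bnip3l and of Etf1 in all 20 sets, as for 39.3% (1684 of 4282) of genes with RNA that passed the filter. The start of Bnip3l was thus open in all 4 B6xSPRET sets, a hybrid in which it had no counts. That of Etf1 was open in the B6xC3H and B6xPWK sets, hybrids in which its counts were at or near 0. The strand of the counting is not given, so these counts need not come from the genes' own transcripts. The start of Als2cr12 had a hotspot in 0 sets and that of Gm10184 in 2, the livers of B6x129 and B6xC3H and not that of B6xSPRET. On the opposite strand the starts of Gm20257 and Egr1 were covered in all 20 sets, and those of Gm24258 and Cbx3-ps7 in 0.

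**Figure D4:**
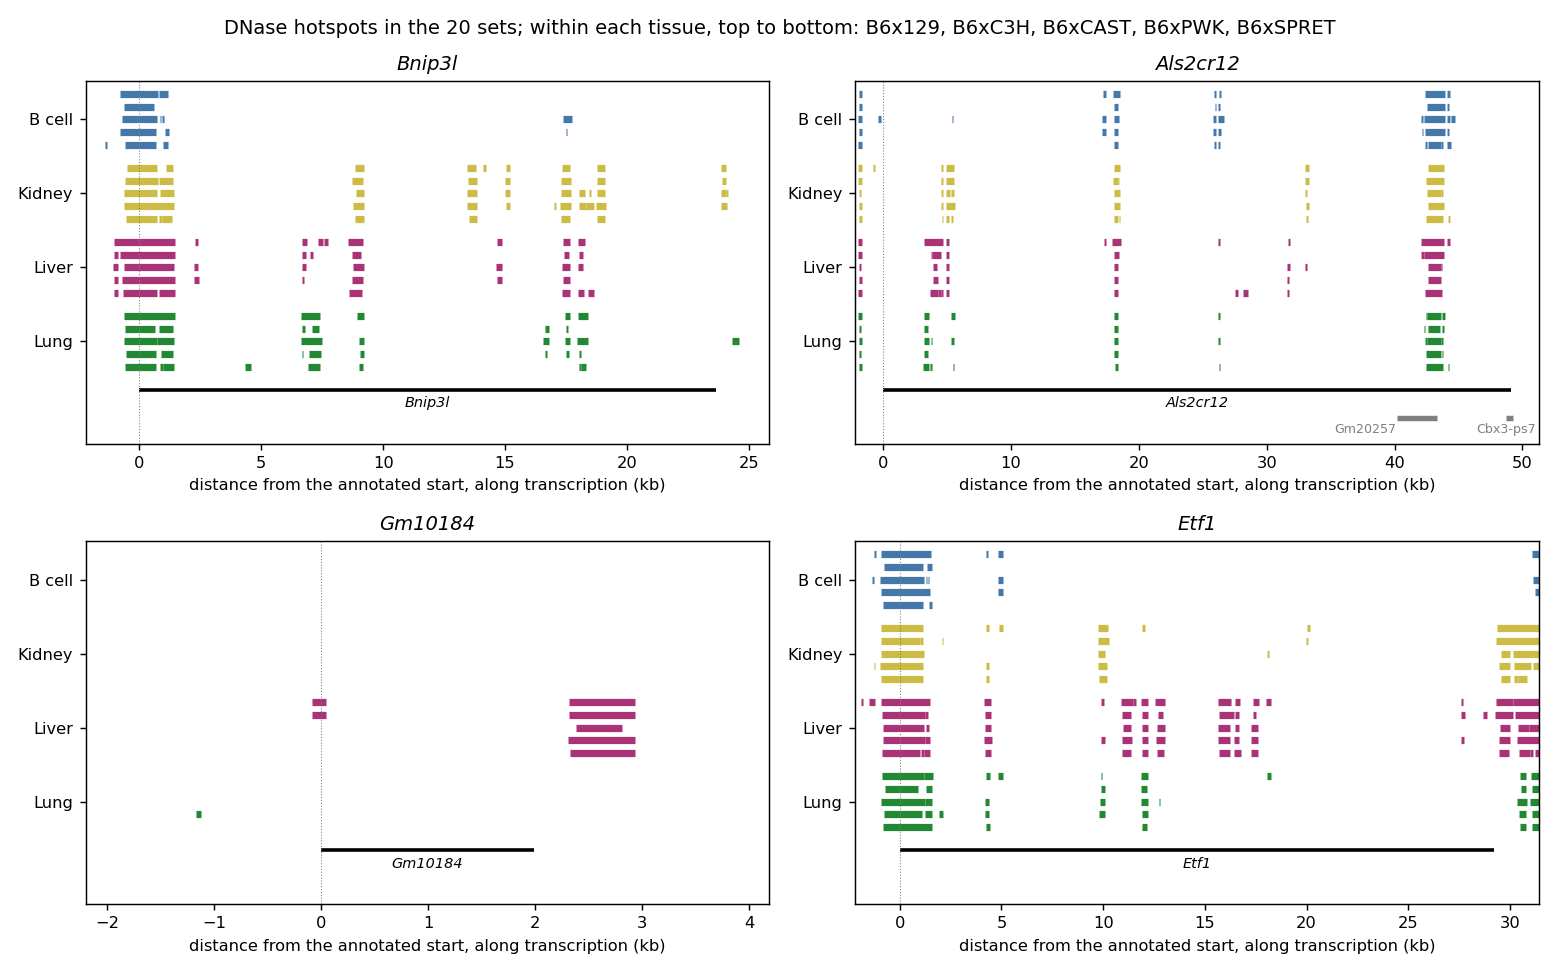
Hotspots of the 20 sets over the 4 genes and 2 kb on each side, by distance from the annotated start along transcription (kb), with 5 hybrids stacked within each tissue and genes drawn as bars below. Hotspots sit over the starts of Bnip3l and Etf1 in every set, over the start of Gm20257 inside Als2cr12 in every set, and downstream of Gm10184 in the 5 liver sets.

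Hotspot cover, the number of bases covered over the gene and 2 kb on each side, was compared between hybrids. Per the study, the pooled sets differ in analysed reads and in their number of hotspots. Cover in bp is not corrected for this. In 40 exact permutation tests of 1 hybrid against the others within tissue, over the 4 genes and their 4 opposite genes, 0 passed after Benjamini-Hochberg adjustment, and 2 had an unadjusted p below 0.05. These were Etf1 in B6x129, higher by 990 bp (5119 ± 2301 bp, SD over 4 tissues, against 4128 bp, exact permutation p = 0.0032, adjusted 0.128), and Egr1 in B6xCAST, higher by 1442 bp (exact permutation p = 0.0256, adjusted 0.512). The Etf1 difference turned sign as a share of all bases that a set covers, and the Egr1 difference did so as a number of hotspots. At Bnip3l the B6xSPRET sets covered 1530 bp in B cells, 3234 in kidney, 3591 in liver and 3027 in lung. Their mean was 2846 ± 907 bp against 3235 bp in the other hybrids, a difference of -389 bp (exact permutation p = 0.234, adjusted 1.0). At Als2cr12 the B6xC3H sets covered 2141, 3295, 3438 and 1922 bp in the same order, a mean of 2699 ± 778 bp against 3094 bp (exact permutation p = 0.398, adjusted 1.0). At Etf1 the B6xSPRET sets covered 2195, 3709, 6154 and 3360 bp, a mean of 3854 ± 1664 bp against 4445 bp. They were below the mean of the other hybrids in each tissue (-590 bp, exact permutation p = 0.0928, adjusted 0.629), while the counts given to Etf1 were highest in this hybrid. With 4 sets per hybrid the smallest p the test allows is 0.0016. A single test at that p could not pass after adjustment over 40 tests. Gm24258 and Cbx3-ps7 had 0 bp in every set, so their tests could not pass either. A missed threshold therefore does not show that hybrids are alike.

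Hotspot cover differed between tissues at Bnip3l, Gm10184 and Etf1 and at Egr1. Of 32 exact permutation tests of a tissue against the other 3 within hybrid, 4 passed, each at the smallest p the test allows (p = 0.00098, adjusted 0.00781). Bnip3l was covered over 1232 to 1976 bp in B cells and 2469 to 4820 bp in the other tissues (1671 ± 302 bp, SD, n = 5, against 3653 bp), and 17.2% of genes had their lowest cover in B cells in each of the 5 hybrids. Gm10184 was covered over 741, 754, 433, 626 and 608 bp in the livers of B6x129, B6xC3H, B6xCAST, B6xPWK and B6xSPRET and over 0 bp in 14 of the 15 other sets, the last being 53 bp in B6xPWK lung. Etf1 was covered over 5929 to 8322 bp in liver against 2136 to 5118 bp elsewhere (6809 ± 935 bp against 3499 bp), and Egr1 over 6177 ± 1328 bp in liver against 3416 bp. For comparison, 19.5% of genes had their highest cover in liver in each of the 5 hybrids. Liver was thus the tissue with the most cover at Gm10184, while the counts given to this gene were lowest in liver among the B6xSPRET libraries (0 and 10.6 CPM). As a share of all bases that a set covers, the difference no longer passed for Bnip3l in B cells (exact permutation, adjusted p = 0.0521) and Egr1 in liver (0.520), and over the gene body alone it no longer passed for Gm10184 (0.286), whose liver hotspot lies outside the gene. Als2cr12 passed in no tissue, and its lowest value was in lung (2411 ± 409 bp against 3216 bp, exact permutation p = 0.043, adjusted 0.196).

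**Figure D5:**
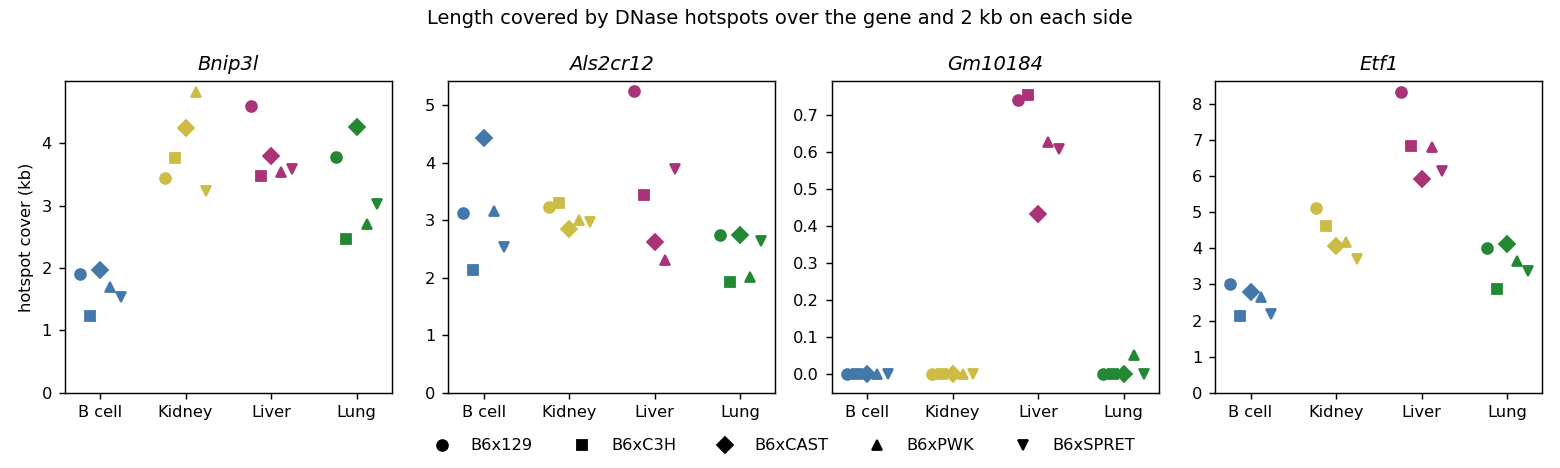
Hotspot cover (kb, linear axis) over each gene and 2 kb on each side in the 20 sets, by tissue on the horizontal axis with hybrids as shapes. Bnip3l is lowest in B cells, Gm10184 is covered in the 5 liver sets and by 53 bp in B6xPWK lung, and Etf1 is highest in liver.

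Single hotspots within the loci show which stretches carry the tissue pattern. At Gm10184 a hotspot of 433 to 626 bp lay 2308 to 2933 bp downstream of the start, past the end of the gene, in all 5 livers and 0 of the 15 other sets, with a −log10 FDR of 35 to 100. At Etf1 4 intronic hotspots were present in all 5 livers and in no other tissue. The widest, of 776 bp after merging, reached a −log10 FDR of 41.5 to 100. In Bnip3l the hotspots at chr14:66995009-66995457 and chr14:66989750-66990141 were present in all 5 kidneys and in no other tissue. Als2cr12 held hotspots in all 20 sets at chr1:58652056-58653912, over the start of Gm20257, at chr1:58677422-58678122 in an intron, and at chr1:58697614-58697929 upstream. The latter pair also overlapped CTCF hotspots of B6xCAST embryonic stem cells. Between 58691291 and 58692841 on the same chromosome hotspots lay in all 15 sets of solid tissues and 0 of B cells, but these did not share a base, since the kidney hotspots ended by 58691441 and the lung hotspots began at 58692151 or beyond. A hotspot lay at chr1:58669925-58670221 in the 5 B cell sets only. A pair at chr1:58667441-58667866 and chr1:58668260-58668490 was present in B6xSPRET liver only, with a −log10 FDR of 23.9 and 5.12.

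The sequences below come from these hotspots. They show 2 stretches open in a single tissue, 1 open in B6xSPRET liver alone and, for contrast, 1 open in all 20 sets. They were read from GRCm38.p6 on the minus strand, the strand of the genes, and are of the B6 reference and not of the other parent. Matches, on either strand, to 7 short motifs are in capitals: AGNNGGCNC (the core of the CTCF site), TGTTTAC (FOXA), CAAAGTCCA (HNF4), TTGCNNAA (C/EBP), TGANTCA (AP-1), CCGGAAGT (ETS) and GTTAAT (HNF1, in part). A match is a description of the letters and does not show binding. The first sequence is the central 300 bp (chr17:89907705-89908004) of the 433 bp of the Gm10184 downstream hotspot shared by the 5 livers. The second is the part of the Bnip3l hotspot shared by the 5 kidneys (chr14:66995060-66995353). The third is the part of the Als2cr12 intronic hotspot shared by all 20 sets (chr1:58677653-58677879). The fourth is the narrower hotspot of B6xSPRET liver in an intron of Als2cr12 (chr1:58668260-58668490).
Gm10184 liver hotspot: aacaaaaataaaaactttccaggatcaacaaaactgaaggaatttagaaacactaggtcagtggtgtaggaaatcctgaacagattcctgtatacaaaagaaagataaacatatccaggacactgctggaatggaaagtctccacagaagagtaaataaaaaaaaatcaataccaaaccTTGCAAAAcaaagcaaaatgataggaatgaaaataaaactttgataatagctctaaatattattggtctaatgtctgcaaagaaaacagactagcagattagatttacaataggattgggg
Bnip3l kidney hotspot: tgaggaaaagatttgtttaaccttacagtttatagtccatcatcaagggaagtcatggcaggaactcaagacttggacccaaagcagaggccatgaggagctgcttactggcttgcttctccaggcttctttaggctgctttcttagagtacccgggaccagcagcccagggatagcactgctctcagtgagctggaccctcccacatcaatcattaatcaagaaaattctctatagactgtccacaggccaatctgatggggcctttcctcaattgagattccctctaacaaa
Als2cr12 intronic hotspot of all sets: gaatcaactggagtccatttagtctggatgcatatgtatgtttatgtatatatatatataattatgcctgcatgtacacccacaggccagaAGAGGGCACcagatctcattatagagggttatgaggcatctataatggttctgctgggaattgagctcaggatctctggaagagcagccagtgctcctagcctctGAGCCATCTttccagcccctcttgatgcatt
Als2cr12 B6xSPRET liver hotspot: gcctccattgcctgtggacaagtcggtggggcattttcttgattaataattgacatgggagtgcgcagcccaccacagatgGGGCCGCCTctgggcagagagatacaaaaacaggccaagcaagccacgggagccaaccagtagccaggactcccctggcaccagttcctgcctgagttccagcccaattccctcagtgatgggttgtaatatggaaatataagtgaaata

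The Gm10184 stretch holds 1 C/EBP match (TTGCAAAA), which 18.0% of 14437 windows of 300 bp on chromosome 1, centred on hotspots of B6xSPRET liver, also hold. The Bnip3l stretch holds none of the 7. The Als2cr12 stretch shared by all sets holds 2 CTCF matches (AGAGGGCAC and GAGCCATCT, the latter on the other strand), against at least 1 in 14.4% of windows of its length, and the B6xSPRET liver stretch holds 1 (GGGCCGCCT on the other strand), against 14.6%. No 2 of these motifs overlap each other in the stretches printed.

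For promoters RefSeq holds 2 entries for Flacc1, each from 250 bases before to 50 after a start, and the sequences for Bnip3l, Gm10184 and Etf1 were not matched. The entry at the annotated start of Als2cr12 (chr1:58695940-58696239) overlapped a hotspot in 1 of the 20 sets and holds no motif match. The entry at an inner start (chr1:58692396-58692695) overlapped hotspots in 6 sets and holds 1 C/EBP match (TTAGGCAA, against 18.0% of windows) and 1 AP-1 match (TGACTCA, against 10.8%). They are shown because the entry at the inner start overlapped a hotspot in all 5 lung sets and in B6x129 liver, while the other did so only in B6xCAST B cells. An overlap with an entry need not reach the start itself.
Flacc1 promoter at the annotated start: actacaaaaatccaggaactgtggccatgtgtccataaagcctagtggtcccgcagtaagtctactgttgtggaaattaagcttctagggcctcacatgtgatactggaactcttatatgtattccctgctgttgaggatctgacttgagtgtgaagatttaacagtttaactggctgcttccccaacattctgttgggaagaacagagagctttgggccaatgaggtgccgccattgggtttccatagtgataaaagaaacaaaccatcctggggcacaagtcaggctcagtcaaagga
Flacc1 promoter at the inner start: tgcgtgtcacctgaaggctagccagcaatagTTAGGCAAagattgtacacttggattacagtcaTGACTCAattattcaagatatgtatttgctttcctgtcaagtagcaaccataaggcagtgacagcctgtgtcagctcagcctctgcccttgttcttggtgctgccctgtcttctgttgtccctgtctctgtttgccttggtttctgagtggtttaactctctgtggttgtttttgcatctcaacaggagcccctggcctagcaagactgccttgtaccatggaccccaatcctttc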

How the data were processed

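RNA-seq covered 17 libraries of total RNA (TruSeq Stranded, paired-end) and DNase-seq 20 combinations of hybrid and tissue. Per the labels, the authors mapped RNA reads to mm10 with STAR and quantified genes with RSEM. The RSEM annotation, settings and strand are not given in the sources used here. The deposited tables give, for each gene, the expected count (not normalized), RSEM's posterior SD, its length and the TPM, which the authors' RSEM run scaled per length and to a fixed total per library. For DNase-seq the authors trimmed reads with Trimmomatic, mapped them with BWA, pooled samples by hybrid and tissue, and ran hotspot2 with an FDR threshold of 5%. The deposited sets give positions and the −log10 FDR, with a ceiling of 100.

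Members and gene lists were chosen with earlier results of these data known. GENCODE vM21 gave symbols to 53620 of 53715 gene IDs. After rounding, expected counts entered edgeR 4.0.16 (quasi-likelihood, TMM, filterByExpr by tissue, Benjamini-Hochberg, threshold 0.05) in 16 libraries with tissue and hybrid as terms. CPM divided each count by the library total. DESeq2 1.42.0 and limma 3.58.1 were alternatives. Scripts were tested on simulated data. Hotspot cover was tested by two-sided exact permutation within strata (625 and 1024 assignments). Counting intervals are at 95%, and the counted total (283725 to 809337 counts per library) limits their precision. Copies were searched with BLAST 2.17.0, and copy sums were added after the data were seen. Named genes were the members, every opposite gene that overlaps one or else the nearest within 50 kb, neighbours within 250 kb that passed the filter, at most 5 called genes per list and comparison, and per member the 3 most alike by Pearson r. The B cell library labelled B6xCAST was left out of hybrid comparisons, and the authors' allelic files are not used here.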

Additional observations from a re-analysis of the deposited data

Results flagged for a closer look

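Hotspot cover of each locus in each tissue, over 5 hybrids, was tested for a value far from the others. Of 22 such groups 2 had one, and chance gives about 1 in 20 groups. Hotspot cover of Bnip3l in liver was 4606 bp in B6x129, against 3804 bp in the next highest hybrid, a gap of 0.71 of the whole range. Per the study, B6x129 liver has the most analysed reads and the most hotspots of all pooled adult sets. The part of this in the value was not tested. Hotspot cover of Gm10184 in lung was 53 bp in B6xPWK and 0 in the other 4 hybrids, from a single hotspot upstream of the gene with a −log10 FDR of 1.97. With the others at 0, any cover above 0 would have been flagged. The B cell library labelled B6xCAST, which entered no hybrid comparison, had 108.9 expected counts of Als2cr12, where the B6xC3H B cell library had 1.0. The study's sample table gives this library as B6xC3H, but the same table also lists as B6xC3H the published libraries that the methods call B6xCAST.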

How the results depend on the processing

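The hybrid differences of the 4 genes are those that chose them. Bnip3l stayed below 0 in B6xSPRET and Gm10184 and Etf1 above 0 when any 1 library was left out, with log2 fold changes against B6xPWK of -7.36 to -6.58, 6.89 to 7.57 and 4.73 to 6.0, and Als2cr12 against B6xC3H ran from 6.3 to 7.11. Counts of called genes moved with the filter. Without a filter 4680 (B cells), 2702 (kidney), 3058 (liver) and 4198 (lung) genes were called between tissues, and 248 (B6xSPRET against B6xPWK), 212 (B6xSPRET against B6xC3H) and 191 (B6xPWK against B6xC3H) between hybrids. A filter of at least 5 CPM in at least 4 libraries, meant as stricter, kept more genes than the one used and gave 4606 (B cells), 2594 (kidney), 3866 (lung), 180, 185 and 140. Library totals alone gave 3012 in liver. Limma on log2(TPM + 1) gave 3385 in liver and 53, 43 and 20 between hybrids, limma on log2(TPM + 0.1) gave 3240, 25, 39 and 7, and DESeq2 gave 78 between B6xPWK and B6xC3H. Leaving out 1 library gave 2568 to 2941 (B cells), 1281 to 1659 (kidney), 1588 to 2107 (liver), 1846 to 2401 (lung), 64 to 127, 66 to 125 and 32 to 66.

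Tissue log2 fold changes that turned sign were as follows. Als2cr12 gave 0.20, -0.12, -0.83 and 0.76 in B cells, kidney, liver and lung with library totals alone, 0.28, -0.26, -0.89 and 0.87 with limma on log2(TPM + 1), and 0.65, -0.70, -1.34 and 1.38 on log2(TPM + 0.1). It gave -0.17 in liver and 0.20 in lung without a filter, and in lung 0.08 with RLE factors and 0.07 with DESeq2. Gm10184 in B cells gave -0.13 with DESeq2, -0.12 with limma on log2(TPM + 0.1) and -1.30 over 17 libraries, where it gave 0.28 in kidney and Etf1 -0.85 in B cells. Leaving out 1 library, Gm10184 ran from -1.31 to 0.76 in B cells and -1.0 to 0.27 in kidney, Etf1 from -1.64 to 0.55 in B cells and -1.12 to 0.25 in liver, Bnip3l from -0.65 to 0.19 in kidney and -0.13 to 1.20 in lung, and Als2cr12 from -0.21 to 0.43 in liver and -0.20 to 0.09 in lung. Of these, the B cell values of Gm10184 (-1.31) and Etf1 (-1.64) come from leaving out the only B6xSPRET B cell library. Hotspot cover of Etf1 in B6x129 gave -2.05 bp per Mb that a set covers, and Egr1 in B6xCAST -1.62 as a number of hotspots. The lung call of Gm10184 was lost with limma (adjusted p = 0.0504 and 0.115), over 17 libraries (0.0665) and without the second B6xSPRET lung library (0.0803). The cause was not tested.

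No paired analysis was possible because the labels carry no replicate numbers shared between groups. The low counted totals limit the liver comparisons, where 3 counts over the B6xSPRET libraries equal 5.14 CPM.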
